A study of Mus musculus with 10 samples.

Results

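The genes described here are the ligands, receptors, secreted inhibitors and Smad proteins of the Wnt, fibroblast growth factor (FGF), bone morphogenetic protein (BMP) and transforming growth factor beta (TGF-beta) pathways. The rule for them uses gene symbols and no measured value, although it was drawn up with earlier results of these data known. It takes every probe set whose single annotated symbol is a family name followed by a member number. The names are Wnt, Fzd, Fgf, Fgfr, Bmp, Tgfb, Tgfbr, Sfrp, Dkk and Smad. Symbols of Wnt, Fgfr and Bmp may continue after the number, and the others end with it. Any symbol that begins with Bmpr was taken as well. This gave 92 genes with 197 probe sets, of 18194 genes and 45101 probe sets in all. Of these, Bmp1, Bmp2k and Fgfr1op2 carry a family name although the proteins are a procollagen protease, a protein kinase and a cytoplasmic protein, and they are given apart.

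The arrays measured RNA of mature medullary thymic epithelial cells (mTECs) of C57BL/6 background mice aged 3 weeks. The sort took thymus cells without CD45 (the leukocyte antigen), with EpCAM (an epithelial surface protein) and with high CD80. There were 5 arrays of wild-type cells, named WT 1 to WT 5, and 5 of Fezf2 KO cells, named KO 6 to KO 10, which lack a zinc finger transcription factor. How the gene was deleted and in which cells of the animal, and whether arrays stand for separate or pooled mice, is not given in the sources used here, so p-values measure only the spread between arrays.

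Wnt ligands are secreted lipid-modified proteins that bind Frizzled receptors together with Lrp5 or Lrp6, and thereby stabilise beta-catenin or act on cell polarity. Dkk and Sfrp proteins hold the ligands or their co-receptors back. FGFs bind receptor tyrosine kinases, and in the thymus Fgf7 and Fgf10 of the mesenchyme are known to act on the epithelium through Fgfr2. BMP and TGF-beta ligands bind paired type I and type II receptors that phosphorylate Smad proteins, and Smad6 and Smad7 inhibit that step. Wnt4 and Bmp4 are known for their part in the growth and identity of thymic epithelium.

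The labels held up against the targeted gene and the markers of the sorted cells. Fezf2 signal was 5475 ± 350 on WT arrays (SD, n = 5) and 15.04 ± 2.77 on KO arrays (SD, n = 5), where every value lay below the 40th percentile of its array, a level of 21.5 to 22.1. All 14 measured mTEC markers were above that level on every array, among them Epcam, Krt8, H2-Aa and Cd80. WT 1 and KO 6 stood apart from the others with 18S ribosomal RNA signals of 3445 and 3762, against 765 to 1774 elsewhere. Xist, transcribed in female cells, was near background on WT 2, KO 6 and KO 8. Markers of other cell types were present as well. The summed signal of 9 endothelial markers was 660 to 1176 on WT and 1090 to 1395 on KO arrays, and that of 14 myeloid markers 6475 to 6902 on WT and 4639 to 5898 on KO arrays. The sum of 9 cortical epithelium markers was 11544 to 15415 on WT and 19437 to 23162 on KO arrays. Such sums weigh bright genes most. At an adjusted p under 0.05 (limma), 3 of the 9 cortical markers were higher in KO cells, 1 was lower and 5 did not pass. Of 12 tested myeloid markers, 5 were lower, 3 were higher and 4 did not pass. The 14 mTEC markers changed as well, with 2 lower, 4 higher and 8 not past the threshold. Of all genes tested, 16.2% were lower and 13.0% higher. The mean log2 signal of the cortical list and of the myeloid list overlapped between the groups. For the cortical list it was 8.94 to 9.50 on WT and 9.08 to 9.78 on KO arrays. For the myeloid list it was 7.38 to 7.47 on WT and 7.25 to 7.48 on KO arrays. The 14 fibroblast markers summed to 4358 to 5117 on WT and 4574 to 5694 on KO arrays, and the 11 thymocyte markers to 873 to 1202 and 566 to 1264. The part of these other cells in the results below was not tested. In RNA from a sorted population, fewer cells of a type and less RNA per cell cannot be told apart.

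Of the 92 family genes, 66 were measured above the filter on low signal (above the 40th percentile of the array on at least 5 of 10 arrays), and 60 of the 66 were above it on all 10 arrays. Among these 66, 13 were lower and 10 were higher in KO cells (limma on log2(signal + 16), Benjamini-Hochberg adjusted p under 0.05 over 14087 genes), together 34.8%. Of all genes tested, 29.2% passed, with 16.2% lower and 13.0% higher. The families therefore changed about as often as other genes, with 19.7% lower and 15.2% higher, and their median log2 change was -0.00089 against -0.03 for all genes. Groups without overlap were about as common in the families as elsewhere. Every KO array lay below every WT array for 9 of the 66 family genes and for 1691 of all 14087 genes. Every KO array lay above every WT array for 7 of the 66 and for 1422 of the 14087. What follows is therefore an account of which members differed, not of a shift of the families as a whole. All changes were modest, the largest being 1.78-fold on this scale, which understates changes of weak signals.

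By role, 14 of 33 tested ligands passed the threshold (10 lower, 4 higher), 3 of 17 receptors (none lower, 3 higher), 1 of 6 secreted inhibitors (lower) and 4 of 7 Smads (2 lower, 2 higher). Ligands were counted by family name, so they include the intracellular genes Fgf12 and Fgf13, both lower, and Fgf14, not past the threshold. Whether the roles differ from each other was not tested. The 14 receptors that did not pass had log2 changes between -0.22 and 0.26, and their 95% intervals lay between -0.41 and 0.66.

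**Figure D1:**
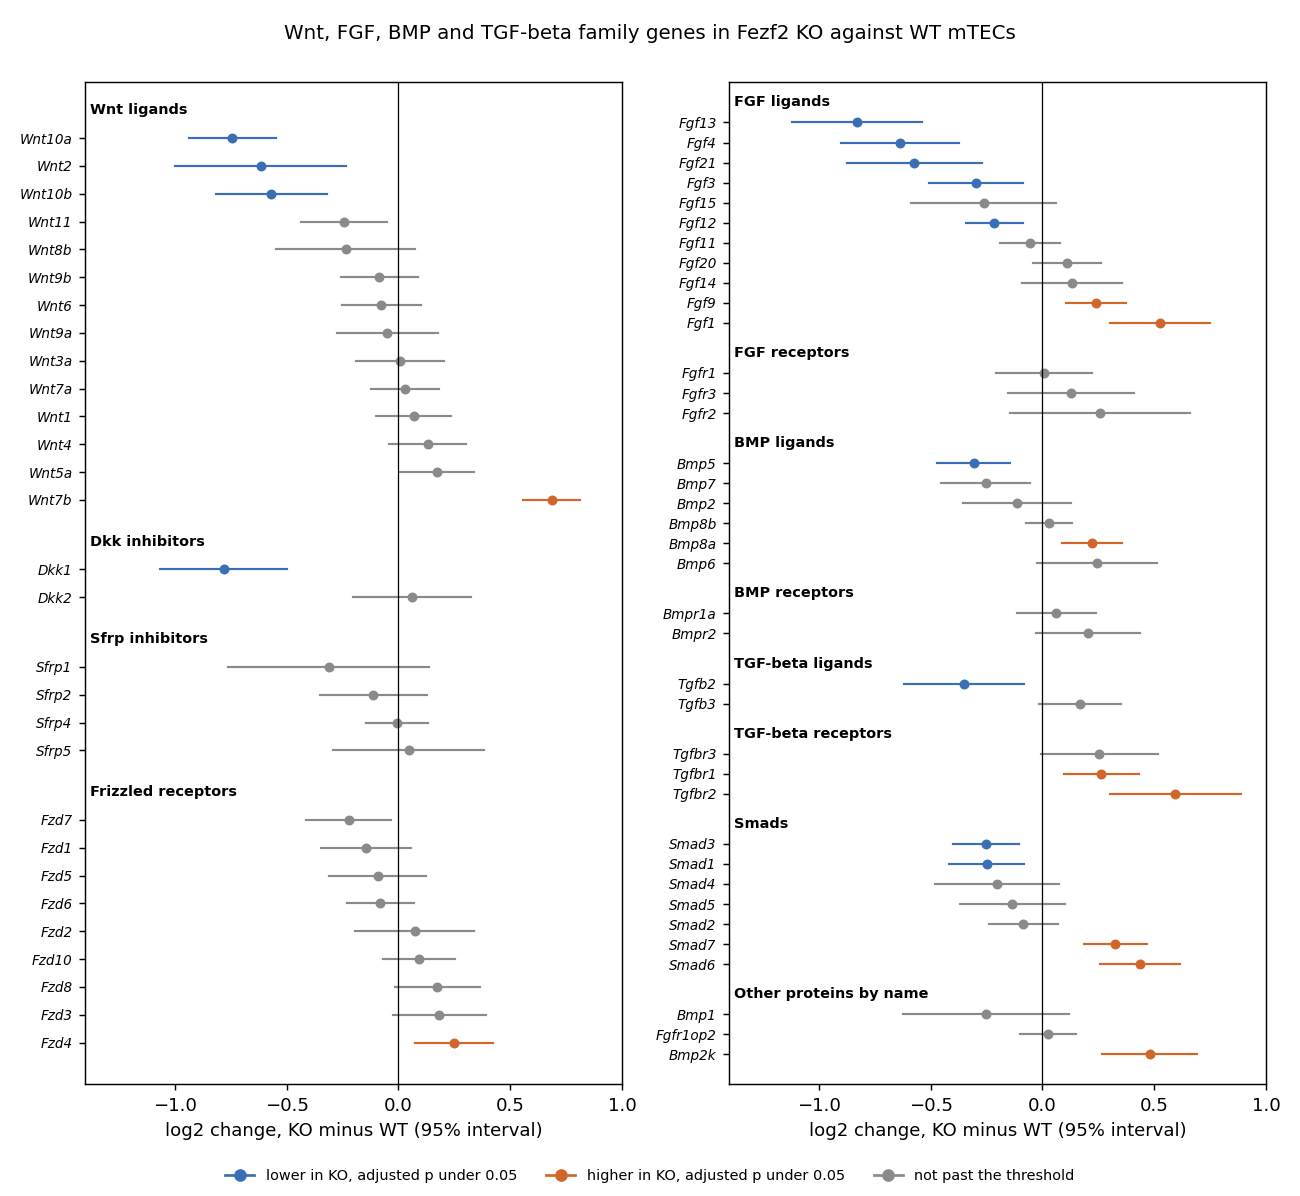
Log2 change, KO minus WT, on the log2(signal + 16) scale for each of the 66 tested family genes, grouped by role, with points for the fitted change and bars for its 95% interval. Blue marks the 13 lower and orange the 10 higher genes at an adjusted p under 0.05, and grey the 43 not past the threshold. The changes run from -0.83 for Fgf13 to 0.68 for Wnt7b.

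The start regions of some changed genes are shown for their letters. They are the 250 bases before the RefSeq start (GRCm38.p6, gene strand, 5′ to 3′) of 2 lower and 2 higher genes. These had the largest changes among genes with 1 start in the table. Genes of 1 chromosome and the proteins that share only a family name were set aside first. Fgf13, Wnt10a, Wnt7b, Fgf1 and Bmp2k each changed more than a shown gene of the same direction, but are not shown. Capitals mark a TCF/LEF core of Wnt target genes (CTTTGAA or CTTTGAT, either strand), a TATA box (TATAAA, gene strand) and a GC box (GGGCGG, either strand), which do not overlap each other here. Dkk1 (chr19:30549497-30549746, minus strand) fell, as did Fgf4 (chr7:144861136-144861385, plus strand). Tgfbr2 (chr9:116175364-116175613, minus strand) and Smad6 (chr9:64022060-64022309, minus strand) rose.
Dkk1: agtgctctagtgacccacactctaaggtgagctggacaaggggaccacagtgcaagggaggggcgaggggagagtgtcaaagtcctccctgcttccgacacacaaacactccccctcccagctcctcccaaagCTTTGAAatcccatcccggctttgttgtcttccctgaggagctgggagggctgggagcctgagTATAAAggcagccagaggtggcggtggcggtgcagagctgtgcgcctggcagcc
Fgf4: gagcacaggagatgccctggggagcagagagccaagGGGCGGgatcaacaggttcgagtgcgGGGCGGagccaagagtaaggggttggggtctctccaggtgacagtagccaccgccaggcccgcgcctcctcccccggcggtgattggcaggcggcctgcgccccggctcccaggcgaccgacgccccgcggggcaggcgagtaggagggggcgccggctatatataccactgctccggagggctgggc
Tgfbr2: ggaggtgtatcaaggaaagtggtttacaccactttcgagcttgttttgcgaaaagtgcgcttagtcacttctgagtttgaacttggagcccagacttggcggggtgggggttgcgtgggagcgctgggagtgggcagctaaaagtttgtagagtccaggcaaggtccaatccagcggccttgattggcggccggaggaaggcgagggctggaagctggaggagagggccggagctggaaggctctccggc
Smad6: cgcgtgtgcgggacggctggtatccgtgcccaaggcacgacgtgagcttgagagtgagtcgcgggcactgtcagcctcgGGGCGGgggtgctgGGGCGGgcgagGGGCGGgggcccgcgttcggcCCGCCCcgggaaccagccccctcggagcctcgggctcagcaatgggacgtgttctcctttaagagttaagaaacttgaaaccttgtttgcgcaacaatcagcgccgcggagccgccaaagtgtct

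The Dkk1 window held a TCF/LEF core and a TATA box and 6 CpG dinucleotides, the Fgf4 and Smad6 windows held GC boxes with 21 and 27 CpG, and the Tgfbr2 window held none of these motifs and 12 CpG. Windows were found for 65 of the 92 family genes (81 windows). The family windows held a GC box in 67.9% of cases, against 32.7% of all 32851 windows of the same length, a TATA box in 8.64% against 7.59%, and a TCF/LEF core in 7.41% against 7.48%. The median number of CpG was 19 in family windows and 6 in all. Among windows of the lower members 10 of 18 held a GC box and 2 a TCF/LEF core, and among those of the higher members 5 of 8 and 0. For members not past the threshold it was 25 of 31 and 1. A match describes the letters only, and no match says nothing about the factor.

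The Wnt ligands divided, with Wnt10a, Wnt10b and Wnt2 lower and Wnt7b higher in KO cells, while 10 other tested Wnt genes did not pass. Wnt10a, a ligand of the beta-catenin branch known from skin appendages and teeth, had signals of 378, 371, 502, 421 and 386 on WT 1 to WT 5 and 227, 217, 228, 260 and 260 on KO 6 to KO 10. Every KO array was below every WT array, and the log2 change was -0.74 (SE 0.09, adjusted p = 7.6e-05, limma). Its relative Wnt10b, which acts in the mammary and hair placodes, gave 102, 128, 161, 116 and 114 on WT and 70.1, 72.1, 68.1, 89.6 and 91.0 on KO arrays. The groups again did not overlap (log2 change -0.57, SE 0.11, adjusted p = 0.00271, limma). Wnt2, a ligand of lung and other mesenchyme, was 47.7, 60.2, 112, 54.7 and 95.2 on WT and 32.4, 42.2, 38.3, 45.7 and 45.5 on KO arrays. WT 3 and WT 5 were well above the other WT arrays, and the lowest WT value, 47.7, was just above the highest KO value, 45.7 (log2 change -0.62, SE 0.18, adjusted p = 0.0194, limma).

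Wnt7b, a ligand of epithelia such as those of lung and kidney, had the smallest adjusted p of all family genes. Its signals were 137, 140, 133, 130 and 135 on WT arrays and 245, 218, 224, 225 and 222 on KO arrays. The groups were far apart relative to their spread, 135 ± 3.73 against 227 ± 10.5 (SD, n = 5 each), with a log2 change of 0.68 (SE 0.06, adjusted p = 5.81e-06, limma). Wnt4, the Wnt best known in thymic epithelium, was 496 ± 39.3 on WT and 546 ± 54.5 on KO arrays (SD, n = 5 each), a change of 0.13 with a 95% interval from -0.04 to 0.30 that did not pass. Wnt11 had a change of -0.24 (adjusted p = 0.0582, limma), and passed without WT 1 (-0.31, adjusted p = 0.00844) and without WT 1 and KO 6 (-0.30, adjusted p = 0.0111). It missed the threshold in 9 of 10 fits that left out 1 array, and in 9 of 14 other settings. The changes of the 10 Wnt genes that did not pass lay between -0.24 and 0.17.

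The neighbours of Wnt10a and Wnt10b did not share their calls. In the RefSeq gene order Wnt10a lies next to Wnt6 and Wnt10b next to Wnt1. Wnt6 had a change of -0.08 (adjusted p = 0.53) and Wnt1 of 0.07 (adjusted p = 0.54), neither past the threshold, with Wnt1 above the 40th percentile on only 4 of 5 KO arrays. Wnt3a and Wnt9a, adjacent to each other, gave 0.006 and -0.05, and neither passed.

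Among the inhibitors, Dkk1 fell and no other tested probe set passed. Dkk1 blocks Wnt signalling by binding Lrp5 and Lrp6. Its signals were 214, 146, 119, 128 and 132 on WT and 75.1, 71.2, 77.0, 90.6 and 74.2 on KO arrays. All KO arrays lay below all WT arrays (log2 change -0.78, SE 0.13, adjusted p = 7.57e-04, limma). WT 1 was the highest array by a wide margin, and without WT 1 and KO 6 the change was -0.64 (adjusted p = 2.5e-04). Dkk2 was 126 ± 25.6 and 131 ± 17.7 (SD, n = 5 each), a change of 0.06 with an interval from -0.20 to 0.33. Sfrp1, a soluble decoy with a Frizzled-like domain, had the largest change of the inhibitors that did not pass, -0.31, with an interval from -0.76 to 0.14. All 5 kept Sfrp1 probe sets had negative changes, from -0.58 to -0.12. In the limma fit of single probe sets 2 of them passed (-0.58, adjusted p = 0.033, and -0.31, adjusted p = 0.0362), as did the mean of the probe sets (-0.32, adjusted p = 0.0153). Sfrp2 was above the 40th percentile on 5 WT arrays and 1 KO array. Its change was -0.11 and passed only where KO 6 was left out (-0.22, adjusted p = 0.031), where WT 1 and KO 6 were (-0.24, adjusted p = 0.0267), or with array weights (-0.26, adjusted p = 0.0203).

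Of 9 tested Frizzled receptors only Fzd4 passed, a receptor also known for vascular development, with 27.0, 23.8, 22.2, 17.7 and 21.1 on WT and 33.1, 25.5, 35.1, 26.9 and 27.3 on KO arrays. The groups overlapped at a level near the filter, which only 3 WT arrays exceeded (log2 change 0.25, adjusted p = 0.0331, limma). That call was lost without WT 3, WT 4, WT 5, KO 6 or KO 8 (changes of 0.20 to 0.25, adjusted p from 0.0578 to 0.0834). The other Frizzled genes had changes from -0.22 for Fzd7 to 0.18 for Fzd3. Fzd7 was 338 ± 32.4 on WT and 288 ± 32.1 on KO arrays (SD, n = 5 each, adjusted p = 0.0746), and passed in fits that left out WT 1 (-0.27, with an adjusted p of 0.0276), KO 10 (-0.28, with 0.0247), or WT 1 and KO 6 (-0.24, with 0.041). It missed the threshold in 8 of 10 fits that left out 1 array, and in 11 of 14 other settings. A second kept probe set of Fzd5 gave 0.16 against -0.09 for the tested one, and that of Fzd6 0.03 against -0.08.

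Genes counted as FGF ligands by name passed in 7 of 11 cases, 5 lower and 2 higher. The lower ones included the intracellular Fgf13 and Fgf12, which bind voltage-gated sodium channels instead of receptors, and the hormone Fgf21. Fgf13 was 351, 284, 317, 211 and 236 on WT and 121, 143, 143, 177 and 163 on KO arrays. This was the largest change of any family gene, with no overlap (log2 change -0.83, SE 0.13, adjusted p = 6.27e-04, limma). Fgf12 was near background, 30.2 ± 2.45 on WT and 23.8 ± 2.13 on KO arrays (SD, n = 5 each), and passed with a change of -0.22. Without WT 1 and KO 6, it was -0.16 and no longer passed (adjusted p = 0.0503).

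Fgf21, a fasting hormone of the liver, had signals of 3913, 3737, 2774, 2676 and 2539 on WT and 1687, 2041, 1877, 2357 and 2460 on KO arrays. The groups did not overlap, although WT 5 and KO 10 were close (log2 change -0.57, SE 0.14, adjusted p = 0.00836, limma). WT 1 and WT 2 were well above the other WT arrays. Without WT 1 and KO 6 the change was -0.41 (adjusted p = 0.0267).

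Fgf3, Fgf4 and Fgf15 are consecutive genes in the RefSeq order, and the first pair was lower in KO cells. Fgf4, a growth factor of the early embryo, was 82.5, 84.3, 86.5, 90.6 and 82.9 on WT and 64.3, 52.7, 59.9, 41.3 and 32.7 on KO arrays. The WT arrays were tightly grouped and all above the more scattered KO arrays (log2 change -0.64, SE 0.12, adjusted p = 0.00194, limma), and a second probe set gave -0.58. Fgf3, known from inner ear and tooth development, was 82.5, 103, 80.2, 94.8 and 96.6 on WT and 56.9, 71.5, 78.0, 84.6 and 67.8 on KO arrays. KO 9 overlapped the WT range (log2 change -0.30, SE 0.10, adjusted p = 0.037, limma). The call of Fgf3 was lost without WT 2, WT 4, WT 5, KO 6, KO 7, KO 9 or KO 10 (changes of -0.38 to -0.23, adjusted p from 0.0546 to 0.0857), and with Xist signal as a block (-0.30, adjusted p = 0.0531). Fgf15, the gut hormone of bile acid feedback, had a change of -0.26 with an interval from -0.59 to 0.06 that did not pass.

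Fgf1 and Fgf9, which act on receptors of nearby cells, were higher in KO cells. Fgf1 was 85.3, 78.9, 67.5, 83.1 and 91.4 on WT and 132, 143, 138, 99.6 and 110 on KO arrays. There was no overlap (log2 change 0.53, SE 0.10, adjusted p = 0.0023, limma), and the other kept probe sets gave 0.42 and 0.26. Fgf9 was 81.5, 83.0, 80.5, 87.0 and 79.1 on WT and 104, 100.8, 105, 95.3 and 94.0 on KO arrays, again apart, with a small change of 0.24 (SE 0.06, adjusted p = 0.0122, limma) and 0.38 on a second probe set.

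Fgf14, another gene of the intracellular group, gave different answers by probe set. The tested, brightest probe set had 169 ± 27.6 and 186 ± 14.3 (SD, n = 5 each), a change of 0.13 that did not pass. Another had 60.2, 90.9, 97.95, 124 and 125 on WT and 93.3, 293, 216, 226 and 227 on KO arrays. KO 6 lay inside the WT range there while the other KO arrays lay above it (log2 change 0.93, adjusted p = 0.0179 in a limma fit of 23581 single probe sets, added after the data were seen). A further weak probe set gave 0.02.

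None of the 3 tested FGF receptors passed. Fgfr2, whose epithelial form binds Fgf7 and Fgf10, was 326 ± 105 on WT and 377 ± 27.0 on KO arrays (SD, n = 5 each), a change of 0.26 with an interval from -0.15 to 0.66. Fgfr3 had a change of 0.13 (interval -0.15 to 0.41), and Fgfr1, near background, of 0.01 (interval -0.21 to 0.22).

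**Figure D2:**
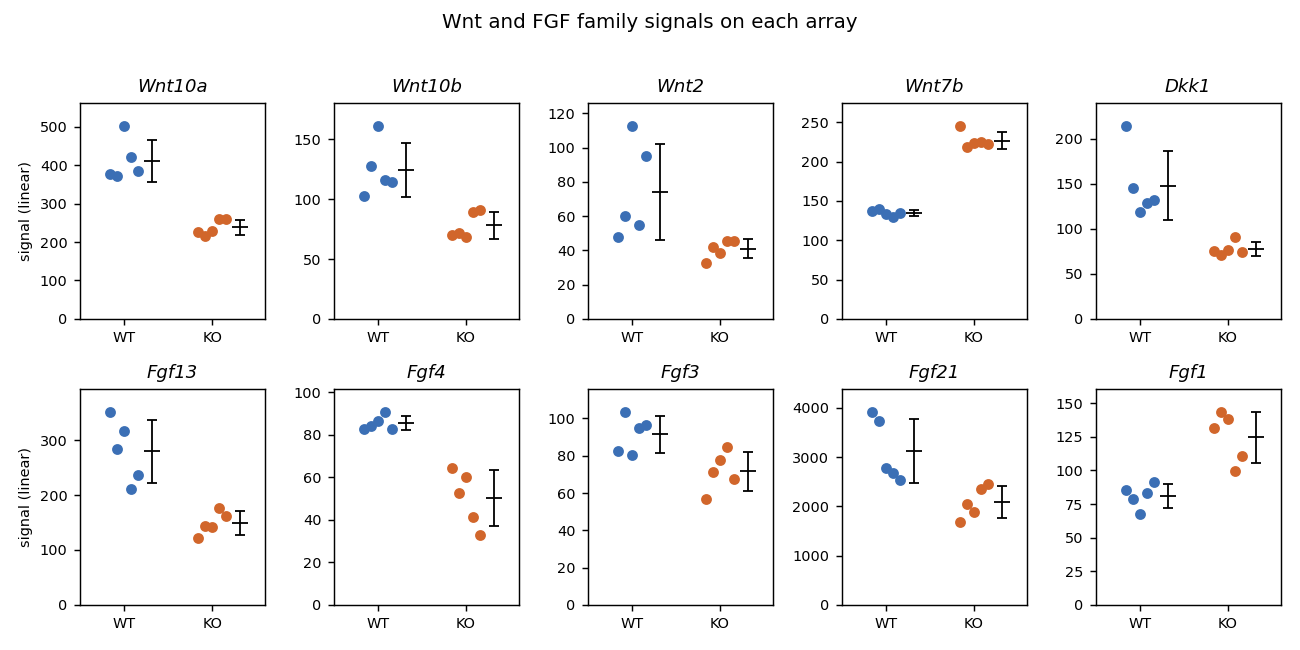
Signal (linear scale from 0) of 10 Wnt and FGF pathway genes on each of the 5 WT (blue) and 5 KO (orange) arrays, with the mean and SD of each group in black. Wnt7b and Fgf1 are higher and the other genes lower in KO cells. Fgf3 is the only gene of these 10, all taken from those past the threshold, whose groups overlap.

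BMP ligands showed small changes. Bmp5 was 47.2, 53.7, 51.0, 61.2 and 61.5 on WT and 44.7, 41.2, 43.3, 41.2 and 35.5 on KO arrays, a non-overlapping fall of 0.31 on the log2 scale (SE 0.08, adjusted p = 0.009, limma). Bmp8a was 26.8, 26.5, 26.8, 24.2 and 31.4 on WT and 33.8, 30.4, 36.6, 37.4 and 33.3 on KO arrays, with KO 7 below WT 5 (log2 change 0.22, adjusted p = 0.0169, limma). The near-identical gene Bmp8b, whose transcripts can share probes with Bmp8a, had a change of 0.03. Bmp2, the BMP gene with a mean of 1249 ± 239 on WT and 1140 ± 81.0 on KO arrays (SD, n = 5 each), had a change of -0.11 with an interval from -0.36 to 0.13. Bmp7 had a change of -0.25 (adjusted p = 0.0562, limma), and passed without KO 10 (-0.29, adjusted p = 0.0459). It missed the threshold in 9 of 10 fits that left out 1 array, and in 11 of 14 other settings. Its other probe sets gave -0.20 and -0.16, with an adjusted p of 0.0372 and 0.28 in the limma fit of single probe sets. The BMP receptors Bmpr1a and Bmpr2 had changes of 0.06 and 0.20, with intervals from -0.12 to 0.24 and from -0.03 to 0.44.

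In the TGF-beta branch the receptors Tgfbr1 and Tgfbr2, which form the signalling pair, were higher and the ligand Tgfb2 was lower. Tgfbr2 was 161, 143, 208, 204 and 157 on WT and 339, 232, 322, 223 and 249 on KO arrays. The groups did not overlap, and KO 6 and KO 8 were the highest (log2 change 0.59, SE 0.13, adjusted p = 0.00564, limma). A second probe set near background, 27.9 in WT and 27.0 in KO cells, gave -0.03. Tgfbr1 was 415, 465, 521, 492 and 533 on WT and 529, 614, 581, 575 and 624 on KO arrays, where only WT 5 and KO 6 crossed (log2 change 0.26, SE 0.08, adjusted p = 0.0211, limma). That call was lost when KO 7 (0.25, with an adjusted p of 0.0549) or KO 10 (0.24, with 0.05003) was left out. Tgfbr3, the co-receptor betaglycan, had a change of 0.25 with an interval from -0.01 to 0.52.

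Tgfb2 was 523, 457, 547, 571 and 495 on WT and 560, 392, 420, 346 and 331 on KO arrays, so that KO 6 was inside the WT range and the other 4 were below it. The change of -0.35 (SE 0.12) was at the threshold (adjusted p = 0.0499, limma). It was -0.46 (adjusted p = 0.00168) without KO 6, and did not pass when any of WT 1, WT 3, WT 4, WT 5, KO 7, KO 8, KO 9 or KO 10 was left out (-0.37 to -0.28, adjusted p from 0.0727 to 0.114). The other 3 kept probe sets of Tgfb2 gave -0.39, -0.24 and -0.17. Tgfb3 had a change of 0.17 that did not pass, and the Tgfb1 probe set exceeded the filter level on 3 WT arrays and no KO array and was not tested.

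Both inhibitory Smads, Smad6 and Smad7, were higher. Of the 5 tested Smads that carry the signal, Smad1 of the BMP branch and Smad3 of the TGF-beta branch were lower and the other 3 did not pass. Smad6 was 68.8, 75.6, 67.0, 54.8 and 60.9 on WT and 85.7, 97.2, 105, 93.0 and 89.2 on KO arrays (log2 change 0.44, SE 0.08, adjusted p = 0.00184, limma). Smad7 was 138, 145, 145, 135 and 146 on WT and 172, 196, 183, 192 and 168 on KO arrays (log2 change 0.33, SE 0.06, adjusted p = 0.00242, limma). For both, every KO array was above every WT array.

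Smad3 was 261, 226, 281, 262 and 260 on WT and 208, 231, 211, 207 and 213 on KO arrays. WT 2 and KO 7 crossed, and the other arrays were apart (log2 change -0.25, SE 0.07, adjusted p = 0.0142, limma). Smad1 was 3028, 2775, 3396, 2894 and 2648 on WT and 2173, 2566, 2613, 2365 and 2659 on KO arrays, with KO 10 just above WT 5 (log2 change -0.25, SE 0.08, adjusted p = 0.0292, limma). Its other kept probe sets gave -0.19 and -0.12, neither past the threshold (adjusted p = 0.108 and 0.39 in the probe set fit), and the mean of its probe sets did not pass (-0.19, adjusted p = 0.104). The Smad1 call was lost without WT 1, WT 3, WT 4, KO 6 or KO 9 (-0.25 to -0.20, adjusted p from 0.0521 to 0.0665), and without WT 1 and KO 6 together (-0.19, adjusted p = 0.0761). The transducers Smad2, Smad4 and Smad5 differed by -0.09, -0.20 and -0.13, none past the threshold, and the shared partner Smad4 passed without WT 1 (-0.31, adjusted p = 0.0474). Smad4 missed the threshold in 9 of 10 fits that left out 1 array, and in 13 of 14 other settings. A weaker Smad5 probe set gave 0.22. Smad3 and Smad6 are adjacent genes in the RefSeq order, and their changes were opposite in sign.

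Tgfbr2, Smad6 and Fzd4 are also expressed by endothelium, whose markers moved in the same direction. Of 9 endothelial markers 6 were higher in KO cells (66.7%) and none was lower, with a median log2 change of 0.62. Of all genes tested, 13.0% were higher and 16.2% lower. No marker was at 0. Pecam1 and Emcn exceeded the filter level on 1 of 5 WT arrays and on all KO arrays, so they were tested only because of the KO arrays. The endothelial sum on WT 1, 1176, lay within the KO range of 1090 to 1395. Tgfbr2, Smad6 and Fzd4 were 161, 68.8 and 27.0 on that array. The part of endothelial RNA in these 3 results was not tested.

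**Figure D3:**
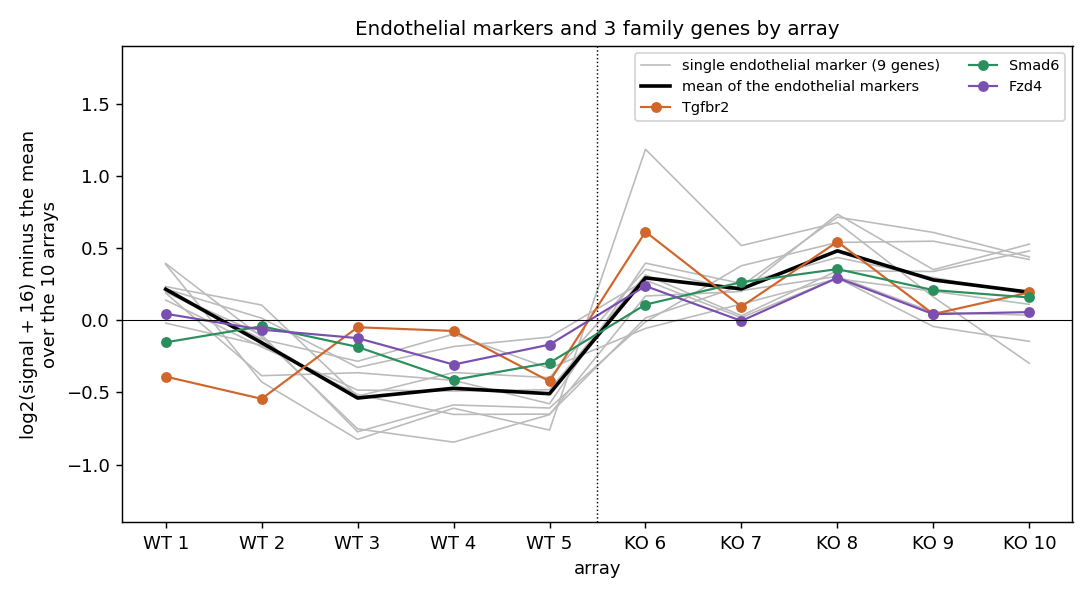
Deviation of log2(signal + 16) from each gene's mean over the 10 arrays, for 9 endothelial markers (grey, with their mean in black) and for Tgfbr2, Smad6 and Fzd4. Lines only join the values of a gene, and a dotted line parts WT from KO arrays. The endothelial mean is higher on most KO arrays, and its value on WT 1 lies within the KO range.

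**Figure D4:**
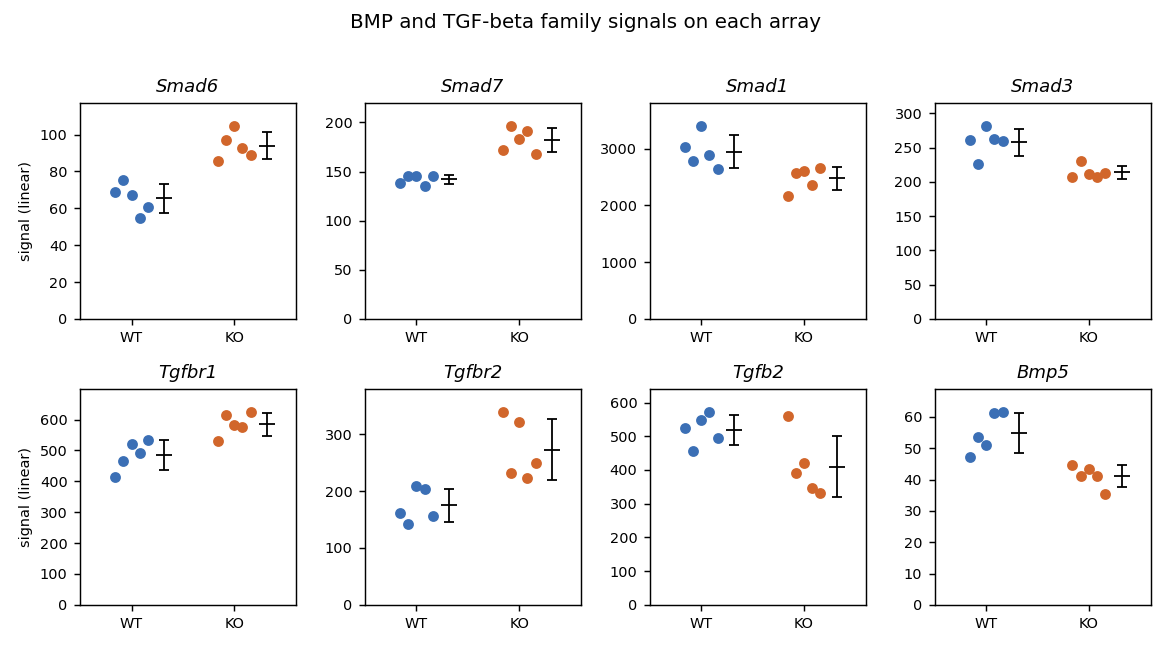
Signal (linear scale from 0) of 8 BMP and TGF-beta pathway genes on each WT (blue) and KO (orange) array, with group mean and SD in black. Smad6, Smad7 and Tgfbr2 are higher and Bmp5 lower in KO cells without overlap, and KO 6 is the single KO array of Tgfb2 within the WT range.

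The 3 proteins that share only a family name gave 1 call. Bmp2k, a kinase named for its induction by BMP2, was 1481, 1751, 1831, 1505 and 1316 on WT and 1881, 2069, 2265, 2343 and 2429 on KO arrays, all KO above all WT (log2 change 0.48, SE 0.10, adjusted p = 0.0029, limma), and its other probe sets gave 0.61 and 0.81. Bmp1 had a change of -0.25 that did not pass, and passed without WT 1 (-0.42, adjusted p = 0.0208). It missed the threshold in 9 of 10 fits that left out 1 array, and in 11 of 14 other settings. Fgfr1op2 had a change of 0.02, with 0.14 and -0.40 on other probe sets.

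The remaining 26 family genes had no probe set above the filter and were not tested. Their signals ranged from 6.73 to 34.3, and 19 of them were below the 40th percentile on every array. They were the ligands Wnt2b, Wnt3, Wnt5b, Wnt8a, Wnt16, Fgf2, Fgf5, Fgf6, Fgf7, Fgf8, Fgf10, Fgf16, Fgf17, Fgf18, Fgf22, Fgf23, Bmp4, Bmp10, Bmp15 and Tgfb1, the receptors Fzd9, Fgfr4 and Bmpr1b, the inhibitors Dkk3 and Dkk4, and Smad9. Fgf7, Fgf10 and Bmp4, ligands known from the thymic mesenchyme, were among them, with means of 15.6 and 14.3, 11.1 and 11.3, and 16.4 and 19.0 in WT and KO cells.

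The other genes of these pathways were taken from 3 lists that hold none of the family genes. Of 45 tested Wnt pathway genes 11 were lower and 5 higher (35.6%, median log2 change -0.05), of 29 FGF pathway genes 5 lower and 7 higher (41.4%, median 0.10), and of 50 BMP and TGF-beta pathway genes 5 lower and 13 higher (36.0%, median 0.12), against 29.2% and -0.03 for all genes.

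In the Wnt list, the 6 genes with the smallest adjusted p were Dvl1, Ryk, Porcn, Rspo3, Apc and Vangl1. Porcn, the enzyme that attaches the lipid to Wnt ligands, was 27.2, 21.2, 34.4, 29.1 and 28.4 on WT and 91.0, 53.6, 56.6, 57.3 and 51.5 on KO arrays (log2 change 0.81, adjusted p = 4.29e-04, limma). KO 6 was the highest by far, and without it the change was 0.69. Ryk, a Wnt co-receptor, rose from 407 ± 45.3 to 593 ± 35.3 and the polarity gene Vangl1 from 120 ± 20.8 to 192 ± 20.5 (SD, n = 5 each). Of the other polarity genes listed, named here after their values were seen, Celsr1 was lower (-0.31, adjusted p = 0.028, limma), and Vangl2, Prickle1 and Prickle2 gave 0.03, -0.02 and 0.06 and missed the threshold. Wls, the carrier of secreted Wnt ligands, gave 0.33 and missed it too (adjusted p = 0.0975). Apc, a scaffold of the complex that degrades beta-catenin, rose from 280 ± 22.8 to 385 ± 33.4, and Dvl1, which relays the Frizzled signal, fell from 2248 ± 131 to 1673 ± 97.3 (SD, n = 5 each). Rspo3, a secreted enhancer of Wnt signalling, fell from 38.9 ± 6.05 to 21.5 ± 4.73 (SD, n = 5 each), near the filter level in KO cells. Axin2, a widely used readout of beta-catenin activity named here after its value was seen, was 92.2 ± 7.81 on WT and 77.1 ± 4.91 on KO arrays (SD, n = 5 each; log2 change -0.22, adjusted p = 0.0403, limma). Its call was lost without WT 1, WT 3, WT 4, WT 5, KO 6, KO 7, KO 8 or KO 10 (-0.23 to -0.18, adjusted p from 0.0594 to 0.0915), without WT 1 and KO 6 together (-0.18, adjusted p = 0.0993), and with Xist signal as a block (-0.20, adjusted p = 0.0637). The Axin2 call was also lost when no filter was used. The related target Lef1 had a change of -0.16 that did not pass (adjusted p = 0.16).

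In the FGF list, Dusp6, an ERK phosphatase induced by FGF signalling, had the largest change of any pathway gene. Its signals were 347, 271, 317, 317 and 302 on WT and 1281, 666, 670, 721 and 733 on KO arrays (log2 change 1.30, SE 0.16, adjusted p = 7.28e-05, limma). KO 6 was far above the other KO arrays, which were themselves all above the WT arrays, and without KO 6 the change was 1.13. Other feedback genes did not all move the same way. Spry1 was higher (0.62, adjusted p = 0.00898, and 0.50 without KO 6), Spred2 and Etv4 were lower (-0.30 and -0.24), and Spry2, Spry4 and Spred1 gave -0.25, 0.06 and -0.25 and missed the threshold. These feedback genes other than Dusp6 were named after their values were seen.

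The FGF list also held 9 genes of heparan sulfate, the co-receptor of FGFs, grouped here after their values were seen, of which 2 were lower, 2 higher and 5 not past the threshold. Sulf1, an extracellular enzyme that removes sulfate groups from it, rose from 253 ± 60.7 to 576 ± 107 (SD, n = 5 each; log2 change 1.15, adjusted p = 2.7e-04, limma). Its relative Sulf2 fell from 1162 ± 88.7 to 659 ± 64.5 (SD, n = 5 each; log2 change -0.81, adjusted p = 1.63e-05, limma), but the Sulf2 probe set without a shared-sequence suffix gave 0.24 (adjusted p = 0.066). Sdc2, a membrane proteoglycan, fell from 157 ± 17.4 to 89.6 ± 9.14 (SD, n = 5 each). Gpc3, another membrane proteoglycan, was higher (0.58, adjusted p = 0.0216, limma), and Hs6st1, Gpc1, Gpc4, Sdc1 and Sdc4 gave 0.10, 0.07, 0.17, -0.02 and 0.27 and missed the threshold. Flrt3 and the adaptor gene Grb2 rose by 0.44 and 0.35 on the log2 scale.

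In the BMP and TGF-beta list, the 6 genes with the smallest adjusted p were Bambi, Ltbp1, Pmepa1, Acvr1b, Zeb2 and Ltbp3. Bambi, a receptor without a kinase that blocks both branches, was 176, 172, 132, 133 and 169 on WT and 340, 335, 344, 345 and 309 on KO arrays (log2 change 1.03, SE 0.09, adjusted p = 5.81e-06, limma). Ltbp1, which stores latent TGF-beta in the matrix, was 60.2, 53.0, 69.6, 48.0 and 44.8 on WT and 122, 131, 136, 132 and 137 on KO arrays (log2 change 1.06, SE 0.09, adjusted p = 6.53e-06, limma). For both genes the KO arrays were close together and far above the WT arrays. Ltbp3 rose likewise, from 426 ± 91.2 to 753 ± 75.5 (SD, n = 5 each).

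Pmepa1, a TGF-beta induced gene whose product restrains the same pathway, went the other way. It was 231, 168, 163, 203 and 210 on WT and 77.5, 90.2, 80.8, 67.9 and 76.6 on KO arrays (log2 change -1.15, SE 0.10, adjusted p = 6.83e-06, limma). Acvr1b, a type I receptor for activin, fell from 477 ± 50.8 to 292 ± 24.5 (SD, n = 5 each). Zeb2, a Smad-binding repressor, rose from 20.9 ± 5.58 to 47.8 ± 7.96 (SD, n = 5 each). It was above the filter level on 1 WT array and on all KO arrays, so it was tested only because of the KO arrays. Of the Id genes, BMP targets named here after their values were seen, Id4 passed (0.52, adjusted p = 0.0485) and Id1, Id2 and Id3 gave 0.33, 0.01 and 0.45 and did not. The Id4 call was lost without WT 2, WT 3, WT 4, WT 5, KO 6, KO 9 or KO 10 (0.34 to 0.55, adjusted p from 0.0547 to 0.107). KO 6, at 1251 against 629 to 770 on the other KO arrays, was the highest. Without WT 1 and KO 6 together Id4 passed (0.45, adjusted p = 0.00311, limma), and with Xist signal as a block it did not (0.46, adjusted p = 0.0763). The call was also lost with an offset of 64, quantile normalization, no filter, the mean of kept probe sets, or no variance trend.

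**Figure D5:**
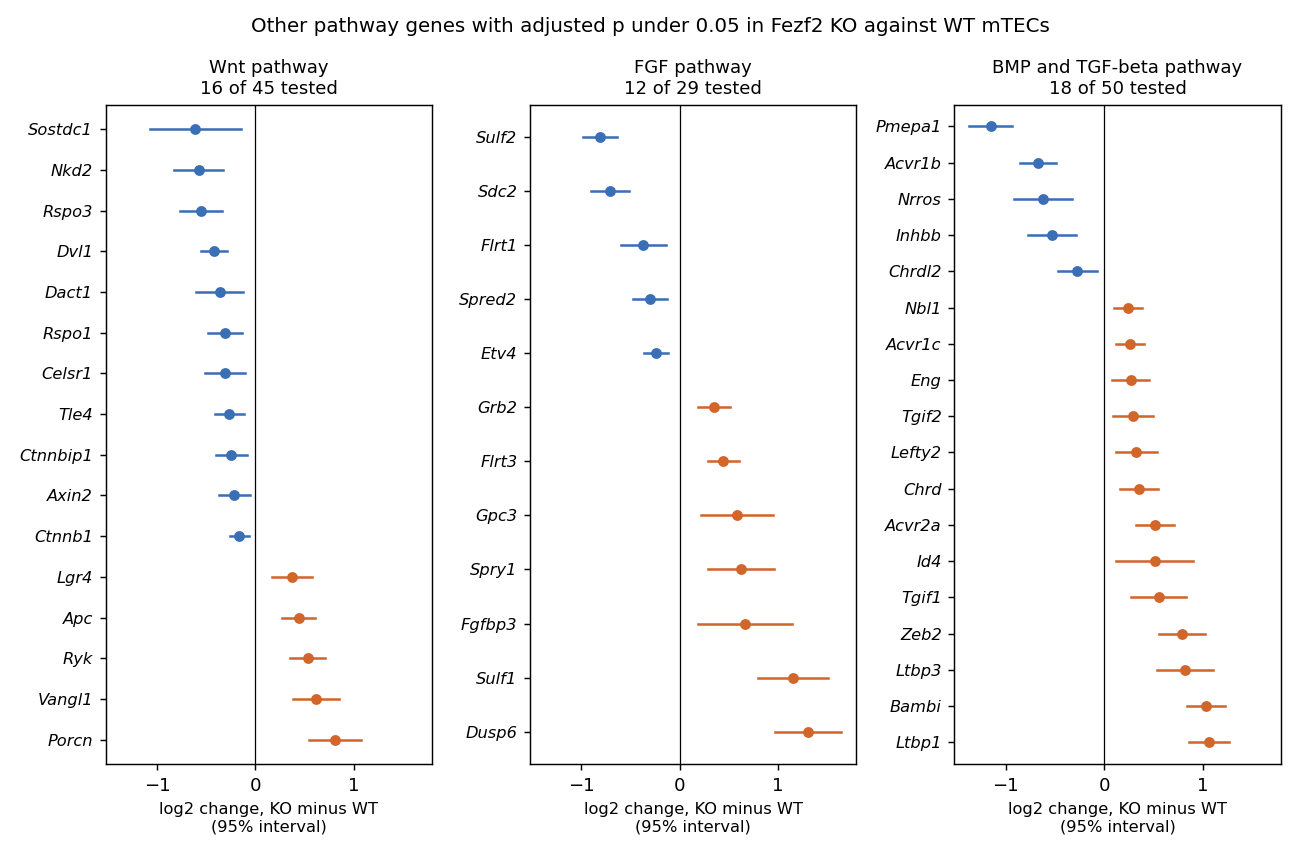
Log2 change, KO minus WT, with its 95% interval for the pathway genes other than family members that passed an adjusted p of 0.05, in 3 lists. Blue marks lower and orange higher genes, 11 and 5 of 45 tested in the Wnt list, 5 and 7 of 29 in the FGF list and 5 and 13 of 50 in the BMP and TGF-beta list.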

How the data were processed

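Sorted mTECs were profiled on 10 Affymetrix arrays, 5 WT and 5 KO. Each deposited value is a probe set's intensity on a linear scale. It was made with MAS5, per the submitters' processing notes, and the scaling is not given in the sources used here. Signals were kept above the 40th percentile of their array on at least 5 arrays. Of a gene's kept probe sets the brightest on average stood for it. For these 14087 genes log2(signal + 16) was fitted with limma 3.58.1 in R 4.3.3 (lmFit, eBayes with trend and robust estimation) as KO minus WT, with Benjamini-Hochberg adjustment and a threshold of 0.05. No sample was dropped. The procedure was tested on simulated arrays. It recovered 72% of simulated log2 changes of 0.5 and 97% of those of 1, with 10 false calls. Smaller changes can therefore be missed. The platform annotation gave 1 symbol for 34958 of 45101 probe sets, several for 932 and none for 9211.

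Family genes, pathway lists, markers and alternatives were chosen with earlier results of these data known. Every family gene past the threshold was named, with each array's signal for up to 12 in each direction, as were up to 6 genes with the smallest adjusted p of each pathway list. Symbols were matched to RefSeq (GRCm38.p6), used for gene order and promoter windows.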

Additional observations from a re-analysis of the deposited data

Results flagged for a closer look

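Among the 23 family genes past the threshold and Fezf2, 48 groups of 5 arrays were searched for an array far from the rest, and chance alone marks about 1 in 20 groups (gap over range above 0.71 for 5 arrays). Dkk1 on WT 1, at 213.8, lay above the 118.5 to 145.7 of the other WT arrays. Smad3 on KO 7, at 230.7, lay above the 206.8 to 213.4 of the other KO arrays. Wnt7b on KO 6, at 245.0, lay above the 218.0 to 224.5 of the other KO arrays. WT 1 and KO 6 are also the arrays with the highest 18S signals. Without both, the changes were -0.64 for Dkk1, -0.24 for Smad3 and 0.66 for Wnt7b, each still past the threshold.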

How the results depend on the processing

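All 23 family genes kept their direction in each of the 24 alternative settings that tested them, and 13 kept their call in every one. At an adjusted p of 0.01, 7 family genes were lower and 6 higher, 8 Wnt and 11 BMP and TGF-beta pathway genes passed, and 1313 genes were lower and 1160 higher over the whole table. Leaving out 1 array at a time gave 10 to 15 lower and 9 to 10 higher family genes, 12 to 16 Wnt, 11 to 13 FGF and 13 to 20 BMP and TGF-beta pathway genes, and 1824 to 2379 lower and 1507 to 1866 higher genes in all. In these fits 18 of the 23 family genes kept their call, the others being Fgf3, Fzd4, Smad1, Tgfb2 and Tgfbr1. Under other offsets, scalings, filters, probe set choices, variance models and blocks, 10 to 18 family genes were lower and 8 to 11 higher, with the upper counts under array weights. Sulf2 turned to 0.24 (adjusted p = 0.066) with probe sets without suffixes, since another probe set was then used. Tgfb2 was past the threshold in 7 of these 14 other settings. No paired analysis was possible because the labels do not say which WT and KO arrays, if any, belong together. Detection calls were not used here, so genes near the filter level may carry mostly background, and the number of arrays limits the precision.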
